A study of Mus musculus with 30 samples.

Results

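The arrays taken at 60 h were compared with those taken at 48 h in a course of retinoic acid (RA) on mouse embryonic stem cells. The 2 groups hold 3 arrays each, labelled A, B and C, out of 30 arrays at 8 times, and were grouped by their titles. Both groups are KH2 cells, a mouse embryonic stem cell line built for the insertion of inducible transgenes, grown on feeder fibroblasts and given 0.3 uM RA in medium with serum, for 60 h or for 48 h. Both were replated for 30 minutes on gelatin before RNA was taken, and the labels leave it unclear whether attached or unattached cells gave the RNA. No genotype differs between the groups, and the labels do not say whether the arrays of a time came from separate cultures, so the p-values rest on a spread between samples that may be technical.

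RA is a vitamin A derivative that binds nuclear receptors, which sit on DNA at paired half-sites and switch on Hox genes, the receptor gene Rarb and the RA-degrading enzyme gene Cyp26a1. In stem cells it ends the pluripotent state, held by factors such as Pou5f1 and Nanog, and favours neural progenitors of hindbrain and spinal cord type. Progenitors that leave the cycle pass through a phase driven by proneural basic helix-loop-helix (bHLH) factors before neuronal structural genes come up.

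Values are log2 intensities, and a change is the 60 h mean minus the 48 h mean with the standard error (SE) of a limma fit to all 30 arrays. Genes with an adjusted p below 0.05 (Benjamini-Hochberg, over 18193 genes) are called. By that rule 4213 genes (23.2% of those tested) differed, 1704 of them higher (9.37%) and 2509 lower (13.8%) at 60 h. A change of at least 1 log2 was reached by 141 genes upward (0.775%) and 92 downward (0.506%). The arrays of the groups did not overlap for 5164 genes (28.4%), and the median change of all genes was -0.0389. The counts depend on which arrays share the estimate of spread: a fit of the 6 arrays alone called 813 genes, and a fit with 12 h and 24 h each taken as 1 group called 1827. Correlations between arrays over all 45101 probe sets, controls among them, were 0.991 to 0.996 within 60 h, 0.995 to 0.997 within 48 h and 0.988 to 0.995 between them. No detection call comes with the values. Where the lower mean lies under 4.73, the lower quartile of the array with the lowest one, the difference is given as "at least" the distance from that floor.

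The promoters of 3 genes that rose are printed because they carry the letters that RA receptors and bHLH factors are known to bind. The 250 bases before each gene's start are from RefSeq on GRCm38.p6, 5′ to 3′ along the gene's strand. Capitals mark a pair of half-sites in Rarb and Cyp26a1, searched on either strand as GNTCA repeated with 6 bases between, and an E-box in Nhlh2, searched as CAGATG or its reverse complement CATCTG or as the palindrome CAGCTG. The motifs do not overlap in these stretches. Rarb lies at chr14:16575477-16575726 on the minus strand, Cyp26a1 at chr19:37697558-37697807 on the plus strand and Nhlh2 at chr3:102009895-102010144 on the plus strand.
Rarb: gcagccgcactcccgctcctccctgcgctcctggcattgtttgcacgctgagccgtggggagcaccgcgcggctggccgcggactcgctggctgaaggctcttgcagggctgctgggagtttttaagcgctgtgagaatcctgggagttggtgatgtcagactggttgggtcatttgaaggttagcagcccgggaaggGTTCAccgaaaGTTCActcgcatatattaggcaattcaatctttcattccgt
Cyp26a1: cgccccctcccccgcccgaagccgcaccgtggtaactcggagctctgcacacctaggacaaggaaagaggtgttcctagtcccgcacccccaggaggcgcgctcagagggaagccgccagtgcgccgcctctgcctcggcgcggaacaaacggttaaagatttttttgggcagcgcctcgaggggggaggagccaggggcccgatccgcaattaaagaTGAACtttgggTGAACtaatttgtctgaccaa
Nhlh2: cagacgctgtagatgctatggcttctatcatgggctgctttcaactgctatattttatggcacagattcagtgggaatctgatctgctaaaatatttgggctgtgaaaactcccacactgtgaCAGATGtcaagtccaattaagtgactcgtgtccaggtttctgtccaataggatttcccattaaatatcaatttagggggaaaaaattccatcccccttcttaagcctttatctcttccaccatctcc
The half-site pair was found in 0.776% of 32851 promoters of this length and the E-box in 25.5%, so an E-box is a common match. In the list of retinoid genes 2 of the 25 with a promoter in the table held the half-site pair, and these are Rarb and Cyp26a1. Of the 15 largest rises, 10 had a promoter in the table and 5 of these held an E-box. Of the 15 largest falls, 9 had a promoter and 4 of these held an E-box. The half-site pair was found in 0 of these rises and 0 of these falls.

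**Figure D1:**
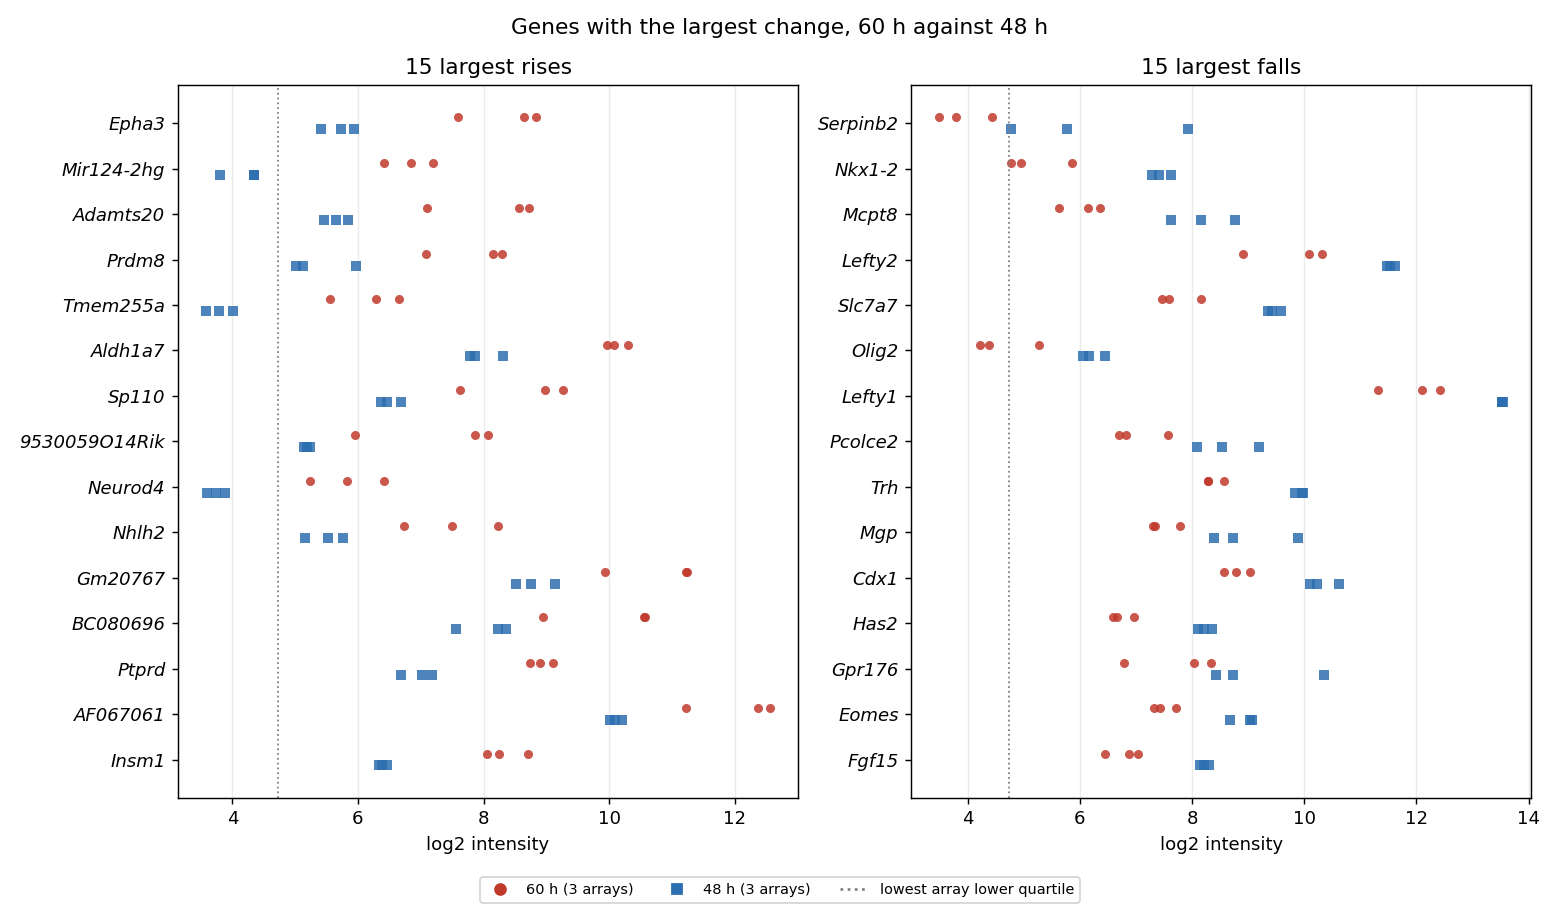
Log2 intensity (horizontal axis) of the 15 genes with the largest rises and the 15 with the largest falls whose arrays did not overlap; each circle is 1 array of 60 h and each square 1 array of 48 h. The dotted line is the lowest array's lower quartile, 4.73, under which all 48 h arrays of Neurod4 and all 60 h arrays of Serpinb2 lie.

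The largest rises held neurogenic factors, genes of axon guidance and a group of genes that the 60 h C array showed less of. Epha3, a receptor for ephrins in axon guidance, had 7.60, 8.83 and 8.64 on arrays A, B and C at 60 h, against 5.42, 5.94 and 5.72 at 48 h, and rose by 2.66 ± 0.21 (SE, limma adjusted p = 6.2e-09). The groups did not overlap, and 60 h A was the lowest of its group. Mir124-2hg, the host gene of a neuronal microRNA, had 6.42, 6.85 and 7.19 at 60 h, against 4.35, 4.34 and 3.80 at 48 h. Its difference was at least 2.09, since the 48 h mean of 4.16 lies under the floor. Neurod4, a bHLH factor of newborn neurons, had 5.24, 6.41 and 5.82 at 60 h, against 3.75, 3.60 and 3.89 at 48 h, a difference of at least 1.09. Nhlh2, a bHLH factor of early neurons, had 6.73, 8.23 and 7.50 at 60 h, against 5.16, 5.52 and 5.77 at 48 h, and rose by 2.00 ± 0.24 (SE, limma adjusted p = 2.3e-06). Insm1, a zinc finger factor of neurogenic progenitors, had 8.05, 8.71 and 8.25 at 60 h, against 6.46, 6.34 and 6.39 at 48 h, and rose by 1.94. In all 5 of these genes the 60 h A array was the lowest of its group, and no array overlapped between the times.

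Further rises were Prdm8, a histone methyltransferase-family factor of neurons, by 2.47, Ptprd, a receptor phosphatase of synapses, by 1.95, and Adamts20, a matrix protease, by 2.48. Aldh1a7, an aldehyde dehydrogenase next of kin to Aldh1a1, had 10.29, 9.97 and 10.07 at 60 h, against 8.31, 7.78 and 7.85 at 48 h, and rose by 2.13 ± 0.19 (SE, limma adjusted p = 3.7e-08). Tmem255a, a membrane protein, differed by at least 1.43, and of its 3 other probe sets 2 were called higher and 0 lower. With probe sets ending in _x_at, _s_at or _a_at left out, the probe set used gave -0.09 and was not called. Averaged over a gene's probe sets, the changes of Epha3, Neurod4, Ptprd and Tmem255a were 1.61, 1.37, 0.95 and 0.89, all still called.

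The other 5 of the 15 largest rises were Sp110, 9530059O14Rik, Gm20767, BC080696 and AF067061, and they shared 1 pattern among the arrays. AF067061 had 12.36, 12.55 and 11.23 on arrays A, B and C at 60 h, against 10.02, 10.20 and 10.09 at 48 h, and rose by 1.95 ± 0.22 (SE, limma adjusted p = 9.9e-07). Gm20767 had 11.22, 11.24 and 9.94 at 60 h, against 8.76, 9.13 and 8.52 at 48 h. In each of the 5 genes the 60 h C array lay more than 1 log2 below 60 h A and B and still above every 48 h array. Genes of the 2-cell-like state, a rare state of stem cell cultures with transcripts of the early embryo, ran the same way: Tcstv3 had 7.83, 7.60 and 6.20 at 60 h, against 5.02, 5.76 and 5.15 at 48 h, and rose by 1.90 ± 0.25 (SE, limma adjusted p = 5.6e-06). Usp17la rose by 1.83, Tcstv1 by 1.80 and Zfp352, a zinc finger gene of that state, by 1.61. In the list of germ cell and 2-cell-like genes 6 of 26 measured members rose and 4 fell (background 9.37% higher and 13.8% lower). The falls were close to the background share. The median was 0.20, and 13 members rose when 60 h C was left out. The calls of 9530059O14Rik and Zfp352 ended in the fit of 6 arrays. With the mean of all probe sets 9530059O14Rik changed by 1.08 and Sp110 by 0.76.

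The largest falls held Nodal antagonists, genes of the primitive streak and tail bud, and matrix genes. Lefty1, a secreted inhibitor of Nodal, had 11.32, 12.10 and 12.41 on arrays A, B and C at 60 h, against 13.53, 13.53 and 13.54 at 48 h, and fell by 1.59 ± 0.17 on the log2 scale (SE, limma adjusted p = 3.8e-07). Lefty2, its neighbour in function, had 8.90, 10.08 and 10.31 at 60 h, against 11.47, 11.62 and 11.53 at 48 h, with a change of -1.77. The 48 h arrays of both genes lay close together, while 60 h A was well below 60 h B and C, and no array overlapped between the times. Nkx1-2, a homeodomain factor of the caudal progenitor zone, had 4.77, 4.96 and 5.86 at 60 h, against 7.29, 7.62 and 7.40 at 48 h, with a change of -2.24 ± 0.24 (SE, limma adjusted p = 4.9e-07). The call of Nkx1-2 ended in the fit with 12 h and 24 h each as 1 group, and with the mean of its probe sets the change was -0.91. Cdx1, a caudal homeodomain factor and direct RA target, had 8.79, 8.57 and 9.03 at 60 h, against 10.10, 10.61 and 10.23 at 48 h, and fell by 1.52. Eomes, a T-box factor of the primitive streak, and Fgf15, a fibroblast growth factor of the neural tube, each had a change of -1.44. Trh, the thyrotropin-releasing hormone gene, which is high in embryonic stem cells, had 8.28, 8.28 and 8.57 at 60 h, against 9.84, 9.97 and 9.95 at 48 h, with a change of -1.54 ± 0.10 (SE, limma adjusted p = 1.2e-10).

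Olig2, a bHLH factor of motor neuron progenitors, had 4.37, 4.23 and 5.26 at 60 h, against 6.15, 6.45 and 6.05 at 48 h, a difference of at least 1.49. Mcpt8, a mast cell protease gene, had 5.62, 6.14 and 6.35 at 60 h, against 7.63, 8.77 and 8.17 at 48 h, with a change of -2.15. Slc7a7, an amino acid transporter subunit, had -1.72, Pcolce2, a collagen processing enhancer, had -1.58, and Has2, a hyaluronan synthase, had -1.49. Serpinb2, a protease inhibitor, had 3.50, 3.79 and 4.43 at 60 h, against 5.77, 4.78 and 7.93 at 48 h, a difference of at least 1.43. It was not called without 48 h C (limma adjusted p = 0.074) or with the mean of fibroblast genes on each array as a covariate (limma adjusted p = 0.0531). Mgp, a matrix protein gene, had -1.53, and was not called without 48 h A (-1.09) or 60 h B (-1.44). Gpr176, an orphan receptor gene, had -1.45, and was not called without 60 h A (-0.98), without 48 h C (-0.86) or with the fibroblast covariate (-0.56).

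**Figure D2:**
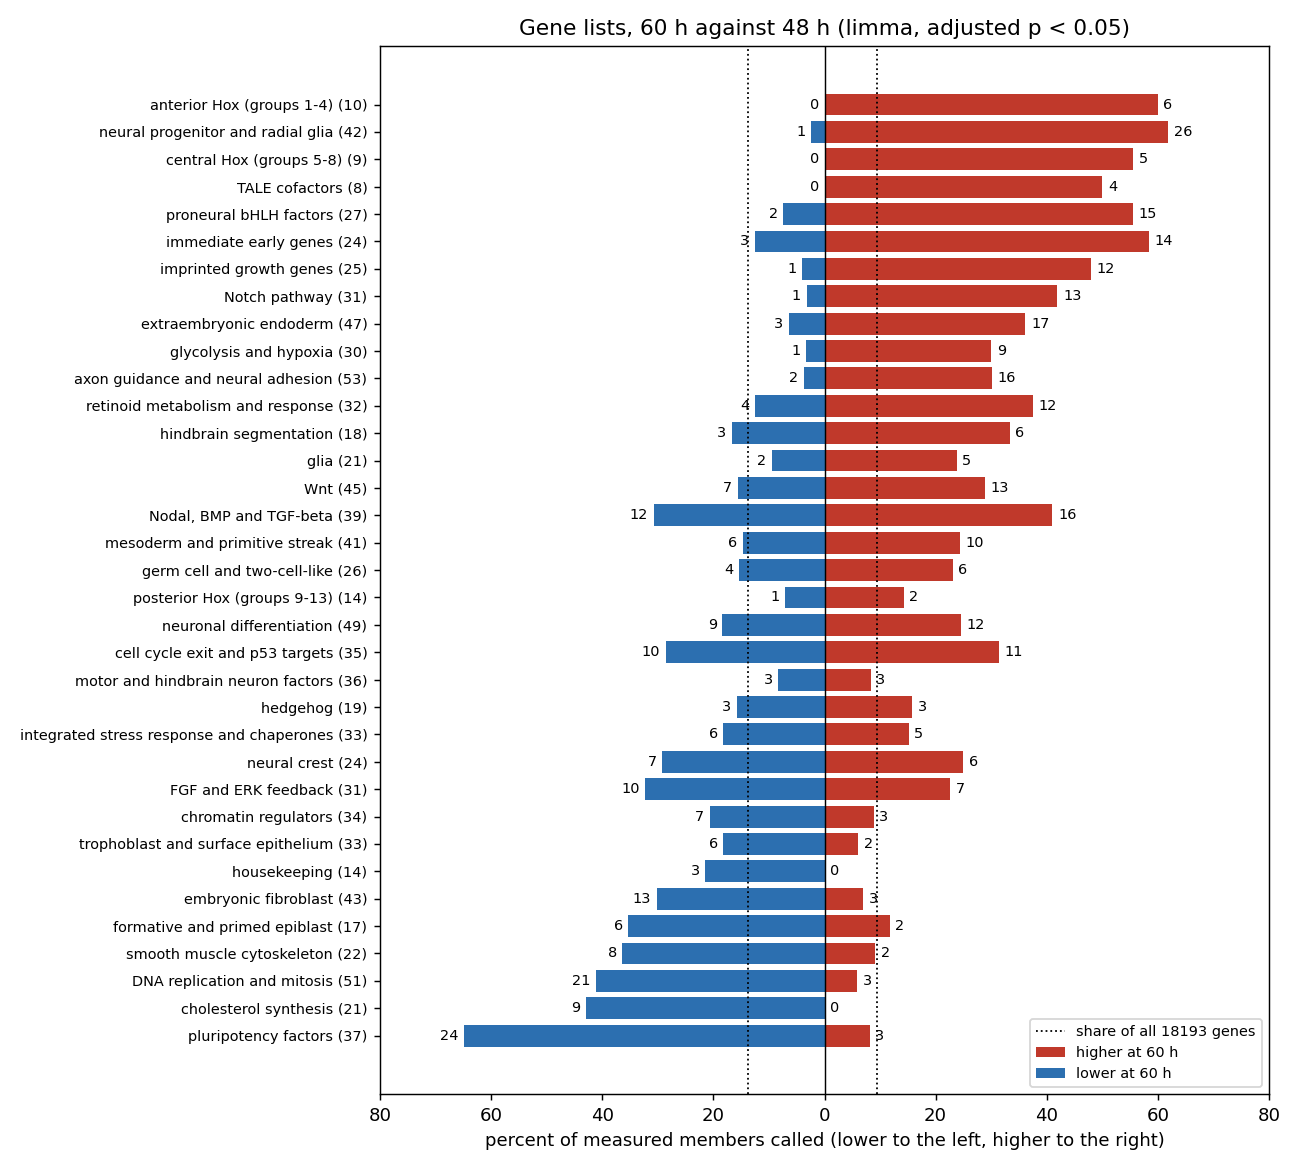
Share of the measured members of each of 35 gene lists that were called higher (right) or lower (left) at 60 h than at 48 h, with the count at the end of each bar and the number measured in brackets. The dotted lines are the shares of all 18193 genes, 9.37% higher and 13.8% lower; pluripotency factors reach farthest to the left, with 24 of 37 lower, and neural progenitor genes farthest to the right, with 26 of 42 higher.

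Pluripotency genes were lower at 60 h across most of their list. Of 37 measured members 24 fell, 3 rose and 10 did not pass, with a median change of -0.42 beside -0.0389 for all genes. The count of falls was 13 in the fit of 6 arrays. In pooled RNA of the cells taken after the gelatin replating, fewer cells of a type and less RNA per cell cannot be told apart. Esrrb, an orphan nuclear receptor of the naive state, had 8.20, 8.41 and 8.64 on arrays A, B and C at 60 h, against 9.37, 9.88 and 9.72 at 48 h, and fell by 1.24 ± 0.13 on the log2 scale (SE, limma adjusted p = 4.9e-07). Nr0b1, a corepressor of the naive state, had 6.45, 6.88 and 7.68 at 60 h, against 7.93, 8.32 and 8.43 at 48 h, with a change of -1.22. Nanog, a homeodomain factor at the core of the network, had 11.44, 11.54 and 11.61 at 60 h, against 12.29, 12.51 and 12.11 at 48 h, and fell by 0.77 ± 0.08 (SE, limma adjusted p = 5.6e-07). Pou5f1, the POU factor also called Oct4, had 10.46, 10.69 and 10.92 at 60 h, against 11.10, 11.46 and 11.60 at 48 h, with a change of -0.70. No array overlapped between the times in these 4 genes.

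Further members that fell were Gdf3, a growth factor of the transforming growth factor beta family, with a change of -1.32, and Utf1, a chromatin factor, with -1.27. Tfcp2l1, a naive-state transcription factor, had -1.10, Prdm14, a repressor of differentiation genes, had -0.99, and Zfp42, also called Rex1, had -0.71. Sox2, which stem cells and neural progenitors share, had 12.32, 12.53 and 12.63 at 60 h, against 12.61, 12.51 and 12.33 at 48 h, with a change of 0.01 that did not pass. Klf4, Klf5 and Tbx3, factors of the naive state, had changes of 0.14, 0.02 and -0.03 and did not pass either. The 3 members that rose were Lifr, a subunit of the leukaemia inhibitory factor receptor, by 1.21, Fbxo15, an F-box gene, by 0.40, and Sall1, a zinc finger gene, by 0.30. The calls of Fbxo15 and Sall1 ended when 60 h A was left out, at 0.31 and 0.29, among other settings. With the mean of all probe sets, the changes of Esrrb, Utf1, Lifr and Tfcp2l1 were -0.82, -0.64, 0.68 and -0.38. The fit of 6 arrays ended the calls of Nr0b1, Pou5f1 and Prdm14.

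The fall was followed by a return of many of these genes between 60 h and 72 h. At 72 h against 60 h 18 of the 37 rose and 3 fell (background of that step 8.54% higher and 2.67% lower), with a median of 0.29. Esrrb averaged 9.22 at 36 h, 9.66 at 48 h, 8.42 at 60 h and 9.53 at 72 h, and its change from 48 h to 60 h differed from that of the next 12 h by -2.35 (limma adjusted p = 2.8e-07). Tfcp2l1 and Nanog had step differences of -2.14 and -1.59 in the same sense, both called. Pou5f1 had 11.44 at 72 h, against 10.69 at 60 h. Of the 37 genes, 23 had a called negative difference between this step and the next (background 12.5%). Both steps use the 60 h arrays, so a low 60 h mean enters both. Trh and Lin28a, an RNA-binding protein of stem cells, had changes of 0.12 and -0.23 at 72 h against 60 h that did not pass.

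**Figure D3:**
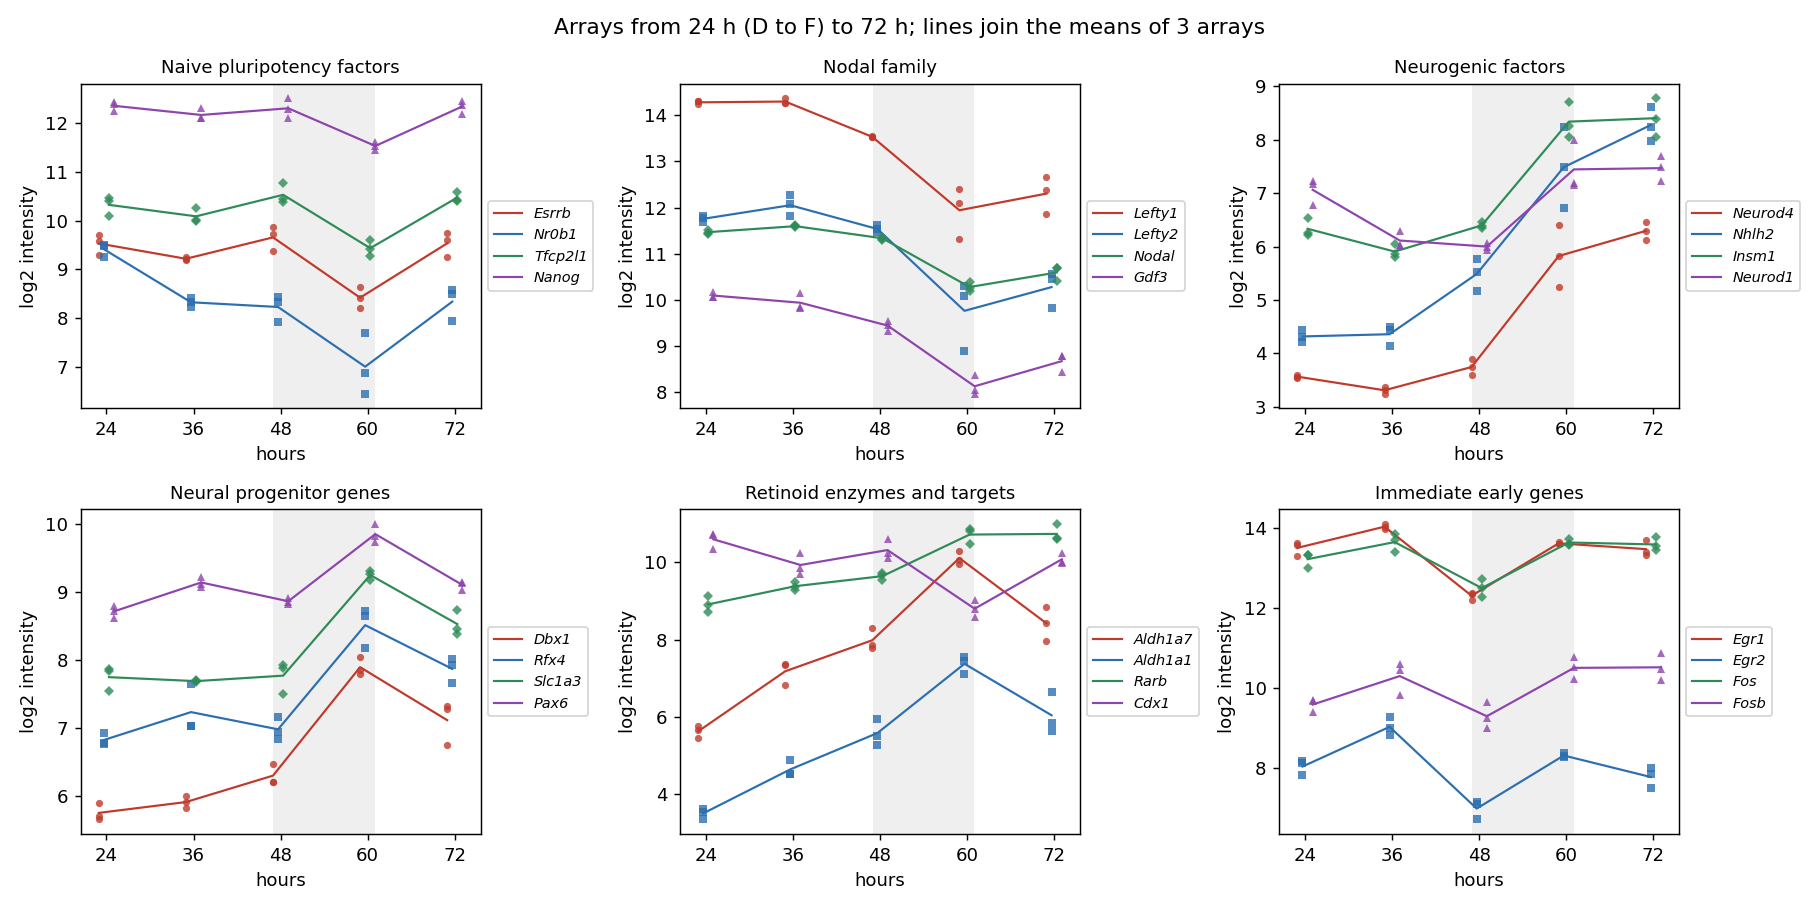
Log2 intensity of 24 genes in 6 groups on single arrays (points) at 24 h (arrays D to F), 36 h, 48 h, 60 h and 72 h, with lines through the means of 3 arrays and the step from 48 h to 60 h shaded. Naive pluripotency genes dip at 60 h and return at 72 h. Neurod4 and Insm1 climb and stay, Nhlh2 climbs on to 72 h, and Dbx1, Slc1a3, Aldh1a7 and Aldh1a1 peak at 60 h. Values under 4.73, as those of Neurod4 up to 48 h, have no order.

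Members of the Nodal, bone morphogenetic protein (BMP) and transforming growth factor beta list moved in both directions. Of 39 measured members 16 rose and 12 fell, with a median of 0.14. Nodal, the ligand itself, had 10.26, 10.19 and 10.39 on arrays A, B and C at 60 h, against 11.37, 11.33 and 11.31 at 48 h, and fell by 1.06 ± 0.06 (SE, limma adjusted p = 1.2e-10). Tdgf1, the Nodal coreceptor Cripto, had 8.87, 9.08 and 8.99 at 60 h, against 9.91, 10.35 and 9.96 at 48 h, with a change of -1.09. All arrays of Nodal and Tdgf1 were apart between the times. Among BMP ligands, Bmp7 rose by 0.63. Bmp5 differed by at least 0.81, a call that ended in the fit of 6 arrays. The BMP targets Id1, Id2 and Id3, which inhibit bHLH factors, rose by 0.72, 0.87 and 0.84, with the call of Id2 ended when 12 h and 24 h were each 1 group. Id3 had 12.00, 11.85 and 11.81 at 60 h, against 10.87, 11.00 and 11.28 at 48 h.

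The activin subunit genes Inhba and Inhbb had changes of -1.28 and -1.08. Inhba had 8.64, 9.69 and 9.03 at 60 h, against 9.83, 9.85 and 11.51 at 48 h, so 48 h C stood apart, and the change was not called without it (-0.72) or with the fibroblast covariate (-0.61). Without 60 h A, Inhba and Inhbb had -1.04 and -0.75 and were not called. The list's falls numbered 5 in the fit of 6 arrays and 7 without 60 h A.

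In the fibroblast growth factor (FGF) list 10 of 31 fell and 7 rose, with a median of -0.06. Etv5 and Etv4, transcription factors induced by FGF signalling, had changes of -1.32 and -1.03, and Fgf17 and Fgf4, ligands, had -1.22 and -0.64. Etv5 had 8.21, 8.52 and 9.13 at 60 h, against 9.85, 10.09 and 9.87 at 48 h. Fgf5, the ligand that marks the primed epiblast, had 7.18, 7.42 and 7.23 at 60 h, against 5.77, 5.91 and 5.71 at 48 h, and rose by 1.48 ± 0.24 (SE, limma adjusted p = 9.5e-05). The direction of Fgf5 was opposite to that of the other FGF ligands named here, and the list of formative and primed epiblast genes that also holds it had 2 of 17 members higher and 6 lower, with a median of -0.17. With the mean of their probe sets, Etv4 had -0.60, Fgf4 -0.38 and Fgf5 0.90.

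Neural progenitor and radial glia genes formed the list with the highest share of rises. Of 42 measured members 26 rose and 1 fell, with a median of 0.47, and 10 rose by at least 1 log2. Dbx1, a homeodomain factor of spinal cord interneuron progenitors, had 7.80, 8.04 and 7.85 on arrays A, B and C at 60 h, against 6.21, 6.21 and 6.48 at 48 h, and rose by 1.60 ± 0.11 (SE, limma adjusted p = 4.2e-10). Slc1a3, the glutamate transporter of radial glia, had 9.27, 9.31 and 9.18 at 60 h, against 7.93, 7.89 and 7.50 at 48 h, and rose by 1.48, as did all 5 of its other probe sets in direction. Pax6, a paired-box factor of neural progenitors, had 9.73, 9.83 and 10.00 at 60 h, against 8.92, 8.83 and 8.85 at 48 h, and rose by 0.99 ± 0.09 (SE, limma adjusted p = 1.8e-08). The groups were apart in all 3 genes, by more than the arrays within a time differed.

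Rfx4, a factor of neural tube patterning, rose by 1.53, Pou3f3, a POU factor of the neural tube, by 1.35, Irx5, an Iroquois homeodomain factor, by 1.29, and Sox11, a factor of committed neural precursors, by 1.27. Pax7, a paired-box factor of the dorsal neural tube, had 6.82, 7.43 and 5.82 at 60 h, against 5.31, 5.43 and 5.21 at 48 h. It rose by 1.38, with 60 h C the lowest of its group, and its call ended in the fit of 6 arrays. Nes and Sox1, general markers of neural progenitors, had changes of 0.11 and -0.05 that did not pass. The 1 member that fell was Tnc, a matrix protein that fibroblasts also make, with -1.17, and it was not called without 60 h A (-0.74) or 48 h C (-0.90). With the mean of all probe sets Pax6 had 0.41, Pou3f3 0.71 and Rfx4 0.77, and Nes had 0.41 and was called. At 72 h against 60 h 17 of the 42 fell and 3 rose (background of that step 2.67% lower and 8.54% higher). Dbx1 and Slc1a3 had changes of -0.78 and -0.72 there, both called. Of the 42, 24 had a called positive difference between this step and the next (background 5.55%).

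Notch genes, which hold progenitors back from neurogenesis, were higher in 13 of 31 members and lower in 1, with a median of 0.14. Nrarp, a Notch target and feedback inhibitor, had 9.17, 9.05 and 9.30 at 60 h, against 8.22, 8.24 and 7.91 at 48 h, and rose by 1.05 ± 0.10 (SE, limma adjusted p = 5.9e-08). Dll1, the ligand of newborn neurons, had 8.09, 8.86 and 8.87 at 60 h, against 8.00, 7.91 and 8.03 at 48 h, so that 60 h A lay 0.06 above the highest 48 h array, and it rose by 0.63. The receptor gene Notch1 rose by 0.56 and the target gene Hey1 by 0.62, while Jag1, another ligand, had -0.55. The fit of 6 arrays called 4 of the 31 higher, and the calls of Dll1, Notch1, Hey1 and Jag1 ended there. Dlk1, an imprinted gene related to Notch ligands, had 1.10. Another probe set, used with those ending in _x_at, _s_at or _a_at left out, gave 0.02.

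Proneural bHLH factors and their partners rose in 15 of 27 members and fell in 2, with a median of 0.37. The rises numbered 7 in the fit of 6 arrays. They numbered 9 when dim genes were left out, because that filter removed members of the list. All 3764 called genes left by the filter kept their call and direction. Neurod1, a bHLH factor of differentiating neurons, had 7.15, 7.99 and 7.19 on arrays A, B and C at 60 h, against 5.99, 6.07 and 5.93 at 48 h, and rose by 1.45 ± 0.16 (SE, limma adjusted p = 7.9e-07). Neurog2, which starts neurogenesis, had 5.62, 6.58 and 6.32 at 60 h, against 4.69, 5.14 and 4.96 at 48 h, and rose by 1.24. Nhlh1, the partner gene of Nhlh2, differed by at least 0.56. The 2 members that fell were Olig2 and Olig1, its neighbour gene, which had 5.32, 5.35 and 5.50 at 60 h, against 6.18, 6.67 and 6.63 at 48 h. Neurod4 was under the floor at 36 h and at 48 h. Insm1 had a change of 0.49 from 36 h to 48 h, and this step exceeded it by 1.45 (limma adjusted p = 0.00057). At 72 h against 60 h, Neurod1 and Insm1 had 0.02 and 0.07 and did not pass.

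Structural genes of neurons held called rises and falls. Of 49 measured members 12 rose and 9 fell (background 9.37% higher and 13.8% lower), with a median of 0.07. The fit of 6 arrays called 4 higher and 5 lower. Elavl4 and Elavl3, RNA-binding proteins of neurons, rose by 0.88 and 0.82, and Nsg2, a neuronal vesicle protein, rose by 0.83 (0.54 with the mean of its probe sets). Elavl3 had 7.33, 7.97 and 7.86 at 60 h, against 6.94, 6.80 and 6.97 at 48 h. Among the members that fell, Nefh, a neurofilament subunit, had -1.05, Chga, a secretory granule protein, had -0.97, Gng3, a G protein subunit, had -0.86, Stmn2, a tubulin-binding protein, had -0.80, and Gap43, a growth cone protein, had -0.78. Stmn2 had 10.25, 10.19 and 10.16 at 60 h, against 10.93, 11.13 and 10.93 at 48 h. Tubb3, the neuronal tubulin, had 7.27, 8.65 and 9.03 at 60 h, against 8.77, 8.94 and 8.86 at 48 h, with a change of -0.54 that did not pass and overlapping arrays. Without 60 h C the change of Tubb3 was -0.90 and was called. At 72 h against 60 h 21 of the 49 rose and 2 fell (background of that step 8.54% higher and 2.67% lower). Tubb3 was among the rises with 1.10.

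In the list of axon guidance and neural adhesion genes 16 of 53 rose and 2 fell, with a median of 0.13. Beside Epha3, Lrrn1, a leucine-rich repeat protein, rose by 1.74, Pcdh8, a protocadherin, by 1.69, Sema6d, a semaphorin, by 1.11, and Nrp2, a semaphorin receptor, by 1.06. Nrp2 had 9.45, 9.51 and 9.38 at 60 h, against 8.34, 8.47 and 8.36 at 48 h. With the mean of their probe sets Lrrn1 and Sema6d had 0.53 and 0.23. Motor and hindbrain neuron factors had 3 of 36 higher and 3 lower, close to the background shares of 9.37% and 13.8%. Lhx1, a LIM homeodomain factor, had 9.17, 9.27 and 8.93 at 60 h, against 7.74, 7.98 and 7.65 at 48 h, and rose by 1.34. The hedgehog list had 3 of 19 members higher, 3 lower and 13 not called (background 9.37% higher and 13.8% lower), with a median of -0.06. In it the ligand gene Shh and the target gene Gli1 had changes of -0.92 and -0.86. The coreceptor genes Boc, Gas1 and Cdon rose by 1.01, 0.94 and 0.78. With the mean of their probe sets Shh and Cdon had -0.56 and 0.46. The call of Gas1 ended with 12 h and 24 h each as 1 group. Olig2, the 6th called member of 19, also fell.

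Retinoid genes rose in 12 of 32 members and fell in 4 (background 9.37% higher and 13.8% lower), with a median of 0.16. The falls were close to the background share. The fit of 6 arrays called 5 higher and 2 lower. Rarb, the RA receptor beta gene whose promoter is printed above, had 10.87, 10.81 and 10.47 on arrays A, B and C at 60 h, against 9.71, 9.68 and 9.53 at 48 h, and rose by 1.08 ± 0.12 (SE, limma adjusted p = 7.3e-07). Cyp26a1 had 13.76, 13.44 and 13.08 at 60 h, against 12.84, 12.84 and 12.75 at 48 h, and rose by 0.61 ± 0.11 (SE, limma adjusted p = 0.00028), a call that ended in the fit of 6 arrays. Both were higher on every 60 h array. The orphan receptor genes Nr2f1 and Nr2f2, also called COUP-TFI and COUP-TFII, rose by 1.43 and 1.25, and Crabp1, an RA-binding protein, by 0.80. Aldh1a1, an enzyme that makes RA, had 7.56, 7.45 and 7.10 at 60 h, against 5.94, 5.52 and 5.28 at 48 h, and rose by 1.79 ± 0.20 (SE, limma adjusted p = 5.7e-07). Its change at 72 h against 60 h was -1.33, also called. Not all RA targets rose: the caudal factor genes Cdx1 and Cdx2 had changes of -1.52 and -1.01. The receptor gamma gene Rarg had -0.36, a call that ended in the fit of 6 arrays.

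Anterior Hox genes rose in 6 of 10 members (median 0.51), central ones in 5 of 9 (0.36) and posterior ones in 2 of 14 (0.04), with 1 posterior fall. Hoxd3 had 7.16, 7.33 and 7.37 at 60 h, against 6.35, 6.22 and 6.03 at 48 h, and rose by 1.09. Hoxc4 and Hoxd8 rose by 0.81 and 0.94, and the posterior genes Hoxb9 and Hoxc9 by 0.87 and 0.71. The fit of 6 arrays ended the calls of Hoxb9 and Hoxa11. Hoxa11, a posterior gene, had -0.61, and Hoxb1, the earliest RA-responsive Hox gene, had -0.12 and did not pass. From 36 h to 48 h 8 of the 10 anterior genes had been called lower (background of that step 14.5% lower and 7.59% higher), and for 9 of the 10 this step was above that one (background 9.10%). Among the cofactors of Hox proteins, Meis1 and Meis2 rose by 0.73 and 0.66, with 4 of 8 members higher and 0 lower. With 12 h and 24 h each as 1 group 1 of the 8 was higher and neither Meis gene was called. The mean of all probe sets gave 0.37 for Meis1, and a probe set of another type gave 0.41 for Meis2.

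Extraembryonic endoderm genes rose in 17 of 47 members and fell in 3, with a median of 0.18, and 10 were higher in the fit of 6 arrays. Cubn, the receptor of visceral endoderm uptake, had 11.25, 11.57 and 11.20 on arrays A, B and C at 60 h, against 9.60, 9.21 and 10.09 at 48 h, and rose by 1.71 ± 0.23 (SE, limma adjusted p = 6.9e-06). Gata4, a zinc finger factor of endoderm, had 8.98, 8.99 and 8.77 at 60 h, against 7.79, 7.59 and 8.14 at 48 h, and rose by 1.08. Lama1 and Col4a1, of the basement membrane, rose by 1.25 and 0.86. Apoa2, an apolipoprotein gene, had 10.29, 10.10 and 8.72 at 60 h, against 8.25, 8.39 and 8.16 at 48 h, and rose by 1.44, with 60 h C the lowest of its group. Markers of mature visceral endoderm, Afp and Ttr, had changes of -0.06 and -0.15 and did not pass, and Gata6 had 0.48 and did not pass. Gata6 was called higher under 6 of 18 alternatives, with 0.74 without 60 h C, and Ttr was called lower without 60 h C. The fit of 6 arrays ended the calls of Apoa2 and Col4a1. Mesoderm genes rose in 10 of 41 and fell in 6, with a median of -0.05, and neural crest genes rose in 6 of 24 and fell in 7, with -0.02. Of all genes 9.37% were called higher and 13.8% lower, so the mesoderm falls were close to the background share.

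**Figure D4:**
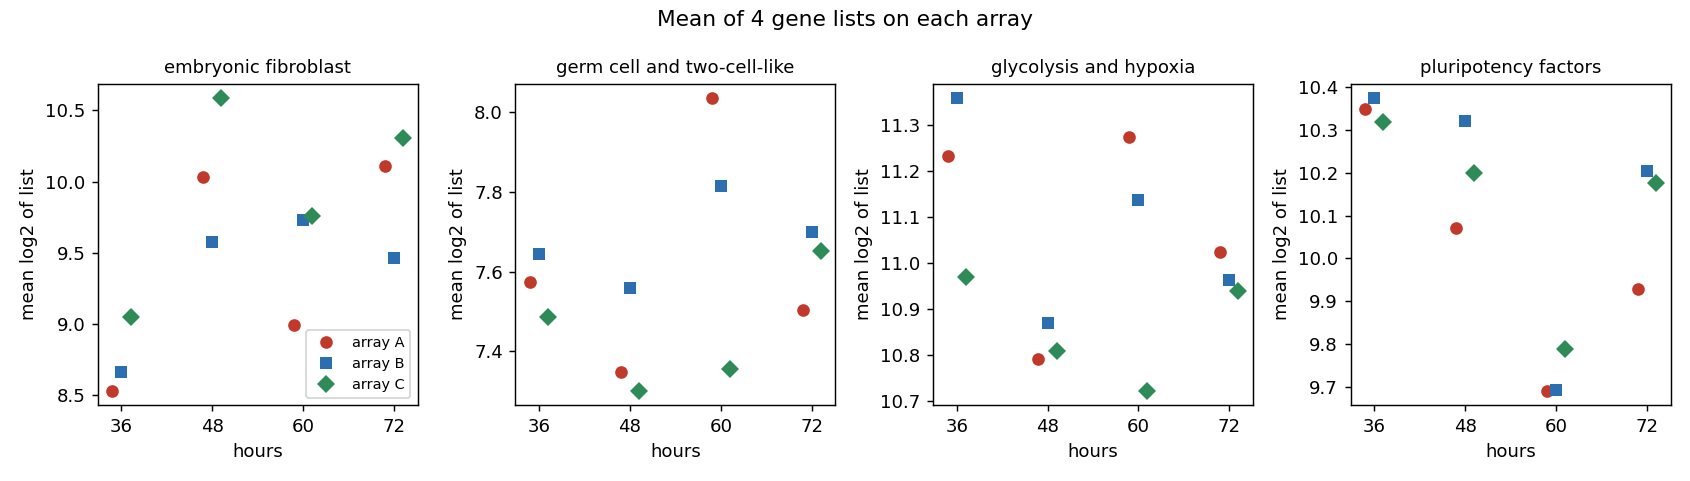
Mean log2 intensity of the embryonic fibroblast, germ cell and 2-cell-like, glycolysis and hypoxia, and pluripotency lists on each array (circles A, squares B, diamonds C) at 36 h, 48 h, 60 h and 72 h. The fibroblast mean is lowest on A among the 60 h arrays and highest on C among the 48 h arrays, the 60 h C array is lowest of its time for the middle lists, and the 60 h arrays of the pluripotency list lie between 9.69 and 9.79, below all others of that list.

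Feeder fibroblast genes varied between the arrays of a time, and their level overlapped between the times. The mean of the 43 measured fibroblast genes was 8.99, 9.73 and 9.76 on arrays A, B and C at 60 h, against 10.03, 9.58 and 10.59 at 48 h, and the groups overlapped. Of the 43 genes 13 fell and 3 rose, with a median of -0.54, and the falls numbered 6 without 48 h C and 3 in the fit of 6 arrays. Of the 7 markers that define feeders, Col1a1, Col1a2, Col3a1, Dcn, Lum and Postn did not pass, and Thy1 had -1.29 (limma adjusted p = 0.013), a call that ended without 60 h A (-0.81) or 48 h C (-0.88). The marker Lum had 5.46, 5.20 and 4.94 at 60 h, against 7.06, 5.40 and 5.33 at 48 h. Thbs1 and Timp1, matrix and protease inhibitor genes, had -1.23 and -1.07, and Mmp2, a matrix protease, rose by 1.04. From 36 h to 48 h 36 of the 43 had been called higher. Smooth muscle cytoskeleton genes fell in 8 of 22 and rose in 2, and the falls numbered 2 with the fibroblast mean of each array as a covariate.

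With that covariate, 2936 of the 4197 called genes outside the fibroblast list were called in the same direction and 0 in the opposite one. The count of falling pluripotency genes was 24 with the covariate too. Of 154 named genes outside the fibroblast list, 147 kept their side of the threshold with the covariate. The other 7 lost the call, among them Gpr176, Serpinb2, Inhba and Fbxo15. The direction of genes called in neither fit was not counted. A change of fewer feeders cannot be told apart from less of their RNA.

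Immediate early genes, which respond to growth factors within minutes, rose in 14 of 24 members and fell in 3, with a median of 0.38. Egr1, a zinc finger factor, had 13.60, 13.64 and 13.58 on arrays A, B and C at 60 h, against 12.34, 12.20 and 12.37 at 48 h, and rose by 1.31 ± 0.14 (SE, limma adjusted p = 6.5e-07). Fos and Fosb, subunits of the AP-1 factor, rose by 1.14 and 1.21, and Egr2, also a factor of hindbrain segments, by 1.32. In the step before, 13 of the 24 had been called lower, and Egr1 had -1.72 there, with means of 14.02 at 36 h, 12.30 at 48 h and 13.61 at 60 h. All 60 h arrays of Egr1 and Fos were above all 48 h arrays.

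DNA replication and mitosis genes fell in 21 of 51 members and rose in 3, with a median of -0.13, and none reached 1 log2. Mybl2, a cell cycle transcription factor, had 9.70, 9.50 and 9.86 at 60 h, against 10.18, 10.38 and 10.31 at 48 h, and fell by 0.61. Mcm5, a subunit of the replicative helicase, fell by 0.33. Only 1 of the 51 was lower in the fit of 6 arrays. Mycn, the Myc family member of neural progenitors, rose by 0.79, or 0.44 with the mean of its probe sets. The list of cell cycle exit and p53 target genes had 11 of 35 members higher and 10 lower, with a median of -0.06. In it Cdkn1c and Cdkn1b, inhibitors of cyclin-dependent kinases, rose by 0.98 and 0.45, calls that ended with 12 h and 24 h each as 1 group. Cdkn1c had 11.47, 11.78 and 11.06 at 60 h, against 10.36, 10.53 and 10.49 at 48 h.

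Imprinted growth genes rose in 12 of 25 members and fell in 1, with a median of 0.23. Igf2, the fetal growth factor, had 13.95, 13.94 and 13.68 at 60 h, against 13.08, 13.33 and 12.91 at 48 h, and rose by 0.75, and Meg3, a maternally expressed long noncoding RNA, rose by 0.66. The call of Igf2 ended with 12 h and 24 h each as 1 group, where 5 of the 25 were higher. Glycolysis and hypoxia genes rose in 9 of 30 and fell in 1, with a median of 0.19. The list mean was 11.27, 11.14 and 10.72 on arrays A, B and C at 60 h, against 10.79, 10.87 and 10.81 at 48 h. The rises numbered 19 without 60 h C, 5 without 60 h A and 0 in the fit of 6 arrays. Cholesterol synthesis genes fell in 9 of 21 and rose in 0, led by Fdps with -0.48, and 1 was lower in the fit of 6 arrays. Dnmt3l, a cofactor of DNA methylation in stem cells, had 8.69, 8.61 and 8.52 at 60 h, against 9.46, 9.75 and 9.37 at 48 h, and fell by 0.92. Of 34 chromatin genes 7 fell and 3 rose (background 13.8% lower and 9.37% higher), so the rises were close to the background share.

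The step was also set against its neighbours. The change from 48 h to 60 h differed from that of 36 h to 48 h in 3056 genes (16.8%; 9.10% positive and 7.70% negative) and from that of 60 h to 72 h in 3291 genes (18.1%) by limma's contrast of the changes. The first contrast has the 48 h arrays in both of its changes and the second the 60 h arrays, so 1 array far from its group enters both. The first count was 1568 without 48 h C, and the second was 1864 without 60 h A and 1960 without 60 h B. Mir124-2hg had means of 4.14 at 36 h and 4.16 at 48 h, both under the floor, 6.82 at 60 h and 6.97 at 72 h. Aldh1a7 had changes of 0.80, 2.13 and -1.69 in those steps, all called. Nkx1-2 had 0.49, -2.24 and 1.83, and the last 2 were called.

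**Figure D5:**
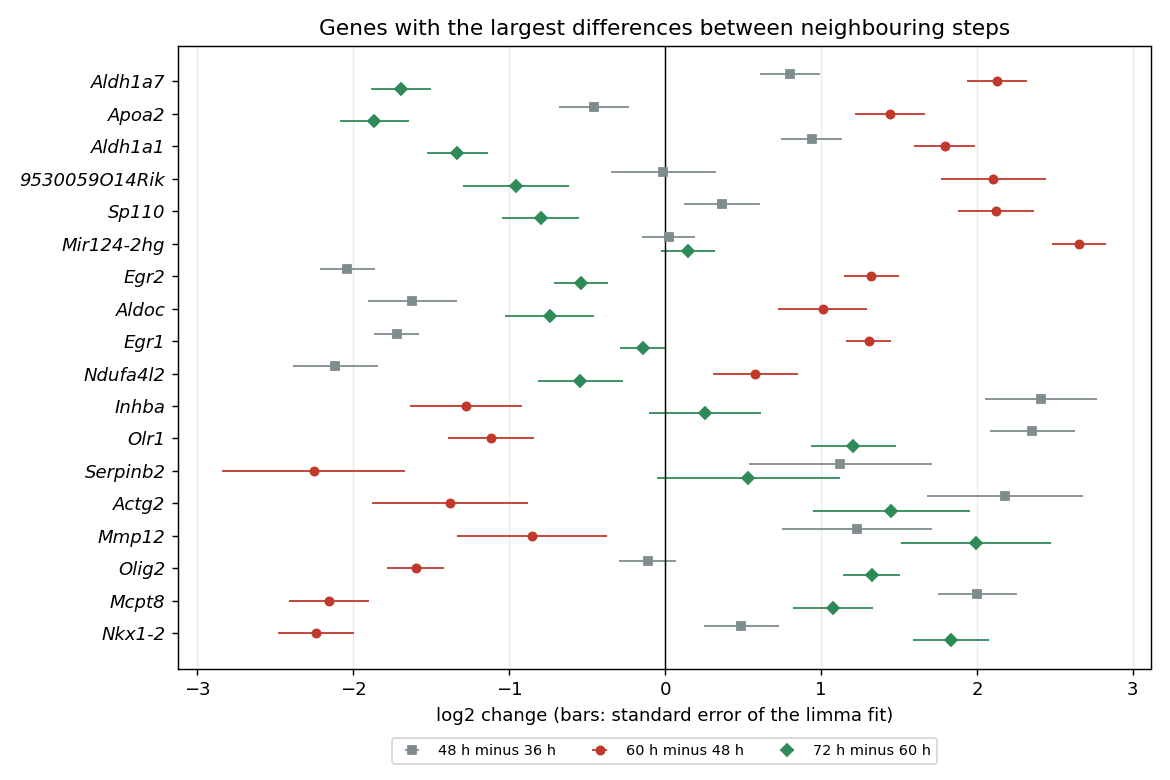
Log2 changes of 18 genes in 3 neighbouring steps (squares 48 h minus 36 h, circles 60 h minus 48 h, diamonds 72 h minus 60 h), with bars for the SE of the limma fit. Genes were chosen as the 5 largest called step differences in each direction; Aldh1a7 rises at 60 h and falls at 72 h, Nkx1-2 and Olig2 fall at 60 h and rise at 72 h, and Egr1 and Egr2 fall at 48 h and rise at 60 h. Means under 4.73 enter the points of Mir124-2hg, Serpinb2, Olr1, Olig2, Aldh1a1 and Mmp12, whose sizes are fitted values only.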

How the data were processed

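RNA of 30 samples was measured on Affymetrix arrays with 45101 probe sets. The authors deposited log2 intensities, 1 value per probe set and array, with quartiles alike on all arrays (lower 4.73 to 4.85, upper 8.56 to 8.70). Control probe sets differed more. The control BioB-3 had 9.73, 8.62 and 9.64 on arrays A, B and C at 48 h. It had 10.02, 9.43 and 9.70 at 60 h and 6.98, 8.96 and 8.43 at 72 h. The control ThrX-3 had 8.93, 9.05 and 10.17 at 48 h, against 9.34, 9.39 and 9.50 at 60 h. Whether these differences bear on the changes of genes was not tested. The normalization method and probe summary are not given in the sources used here. limma version 3.8.3 is named in the submitters' processing notes, with no role. The number of arrays per time, 3, limits the precision, and the deposited values hold no counts of molecules.

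Probe sets were named from the platform annotation: 34945 had 1 gene symbol, 932 several and 9160 none, beside 64 controls. Each of 18193 genes is represented by the probe set of highest mean across the arrays, with no filter on dim genes; 2908 genes had a lower mean under the floor of 4.73. limma 3.58.1 in R 4.3.3 fitted 10 groups (8 times, with 12 h and 24 h each split by array letters A to C and D to F) to all 30 arrays with 20 residual degrees of freedom, empirical Bayes moderation and Benjamini-Hochberg adjustment, two-sided. The fit was tested on simulated data. Differences between steps are contrasts of the same fit.

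Named genes are the 15 called genes that rose most and the 15 that fell most with arrays that did not overlap, members of 35 gene lists with called members first by size, and the 5 largest differences of each sign for each pair of steps. The comparison and the lists were chosen with earlier results of these data known. Array letters were not taken as pairs, since correlations of same-letter deviations between 60 h and 48 h were -0.005 for A, -0.106 for B and 0.116 for C. Over all pairs of times from 36 h to 72 h 13 of 18 same-letter correlations exceeded 0.1, with a range of -0.171 to 0.542. Alternatives covered the arrays fitted, normalization, the filter on dim genes, the choice of probe set, the moderation, array weights, a replicate block and each array left out. A fit of the 36 h to 72 h arrays and one with the fibroblast mean of each array as a covariate were added after seeing the data.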

Additional observations from a re-analysis of the deposited data

Results flagged for a closer look

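The change from 48 h to 60 h differed from that of a neighbouring step, by limma's contrast of the changes with an adjusted p below 0.05, in 3056 genes against the step from 36 h to 48 h and in 3291 genes against the step from 60 h to 72 h. Against the earlier step, the largest positive differences were those of Egr2 (3.36), Egr1 (3.03), Ndufa4l2 (2.69), Mir124-2hg (2.63) and Aldoc (2.63). Ndufa4l2, a mitochondrial protein gene induced by hypoxia, had 8.85, 8.57 and 7.44 on arrays A, B and C at 60 h, against 7.76, 7.84 and 7.53 at 48 h. Aldoc, a glycolytic enzyme gene, had 10.02, 9.32 and 8.20 at 60 h, against 8.13, 8.38 and 8.01 at 48 h. Both had 60 h C as the lowest array of its group, as in the glycolysis and hypoxia list. The difference of Aldoc was 0.24 and not called with probe sets ending in _x_at, _s_at or _a_at left out. Neither gene's difference was called with the fibroblast covariate (1.73 for Ndufa4l2 and 1.49 for Aldoc).

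The largest negative differences against the earlier step were those of Mcpt8 (-4.16), Inhba (-3.69), Actg2 (-3.56), Olr1 (-3.47) and Serpinb2 (-3.38). Actg2, a smooth muscle actin gene, had 7.02, 8.55 and 8.97 at 60 h, against 9.46, 8.56 and 10.67 at 48 h, with the arrays of each time in the order of their fibroblast mean. Olr1, a scavenger receptor gene, had 4.52, 5.39 and 5.87 at 60 h, against 6.28, 6.26 and 6.61 at 48 h. With the fibroblast covariate Inhba had -1.49 and was not called, and the calls of Actg2 and Serpinb2 ended too. Without 48 h C, Actg2 had -2.45 and Serpinb2 -1.61, neither called, and Serpinb2 was not called without 60 h A either (-3.17). Means under the floor of 4.73 enter the differences of Mir124-2hg (36 h and 48 h), Olr1 (36 h) and Serpinb2 (60 h), so these sizes and their places are fitted values, not measured ones.

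Against the later step, the largest positive differences were those of Aldh1a7 (3.82), Apoa2 (3.31), Aldh1a1 (3.13), 9530059O14Rik (3.06) and Sp110 (2.92). The largest negative ones were those of Nkx1-2 (-4.07), Mcpt8 (-3.23), Olig2 (-2.92), Mmp12 (-2.85) and Actg2 (-2.83). Mmp12, a macrophage protease gene, had 5.03, 4.95 and 5.11 at 60 h, against 5.44, 7.47 and 4.75 at 48 h, so 48 h B alone stood high. Actg2 was not called against the later step without 60 h A (-1.67), without 48 h C (-2.28) or with the fibroblast covariate (-0.84). Mmp12 was not called without 60 h A (-2.85) or 60 h B (-2.77). The 60 h mean of Olig2, 4.62, lies under the floor, so its size is a fitted value.

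Probe sets without a single gene symbol were not used in the comparison. Of these 10092 probe sets 827 were called in the same contrast, 494 higher and 333 lower, with 61 higher and 14 lower by at least 1 log2.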

How the results depend on the processing

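The number of called genes depended on the arrays that share the estimate of spread. The 4213 calls (1704 higher, 2509 lower) became 813 with only the 48 h and 60 h arrays (439 higher, 374 lower), 1827 with the 8 label times as groups (785 and 1042) and 2221 with only the 36 h to 72 h arrays (998 and 1223). Of the 4213, 809, 1827 and 2203 were called in the same direction there. With the replicate block over 36 h to 72 h 2798 genes were called, 1645 of them lower. Same-letter arrays of 60 h and 48 h did not all deviate together, but 13 of 18 same-letter pairs over 36 h to 72 h had a correlation over 0.1. Leaving out each array gave 3000 to 5137 calls, 1237 to 2138 higher and 1755 to 2999 lower. Genes at least 1 log2 higher numbered 141, 88 without dim genes and 117 to 194 with an array left out. Those at least 1 log2 lower numbered 92, 59 in the fit of 6 arrays, 55 without 60 h A and 144 without 60 h C.

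The 3056 differences from the earlier step became 888 with 8 label times, 1768 with the replicate block, 1072 in the 36 h to 72 h arrays, 637 with the fibroblast covariate and 1568 to 4024 with an array left out. The 3291 differences from the later step became 1106 with 8 label times, 6363 with array weights, 2053 with the replicate block, 1302 in the 36 h to 72 h arrays and 1864 to 4347 with an array left out.

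For 165 named genes, 2925 values under 18 alternatives were computed: 2796 kept their side of the threshold, 115 lost the call, 13 gained it and 1 reversed. A change of sign was counted as a reversal only for a gene called in the main fit or in the alternative. Values called in neither may have changed sign within the 2796. The reversal was Tmem255a, at -0.0919 with probe sets ending in _x_at, _s_at or _a_at left out. In the step differences, the values of Serpinb2 (0.76) and Actg2 (0.0612) against the earlier step changed sign with the fibroblast covariate. Neither was called there (limma adjusted p = 0.701 and 0.978). The fit of 6 arrays ended 36 of the calls and that of 8 label times 22. The causes of these changes were not tested. Dim genes carry a bound, since signal near the floor has no order.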

Other observations

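Of 45 measured Wnt genes 13 were higher and 7 lower (background 9.37% higher and 13.8% lower), with a median of -0.03. The falls were close to the background share. Lgr5, a receptor for R-spondins, had 7.77, 8.11 and 8.07 on arrays A, B and C at 60 h, against 6.38, 6.78 and 6.97 at 48 h, and rose by 1.27 ± 0.16 (SE, limma adjusted p = 3.6e-06). Wnt4, a ligand, rose by 0.91. Sp5, a Wnt target gene of the primitive streak, had 7.16, 6.72 and 6.98 at 60 h, against 7.97, 8.30 and 7.67 at 48 h, and fell by 1.03. Axin2, a general Wnt target, had a change of -0.06 that did not pass. With the mean of its probe sets, Lgr5 changed by 0.65.

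Genes of trophoblast and surface epithelium had 2 of 33 members higher and 6 lower, close to the background shares of 9.37% and 13.8%, with a median of -0.05. Plac1, a placental gene, had 8.69, 8.21 and 8.18 at 60 h, against 7.04, 7.32 and 7.03 at 48 h, and rose by 1.23. Grhl3, a factor of surface ectoderm, had 6.97, 6.72 and 6.70 at 60 h, against 7.83, 8.17 and 7.93 at 48 h, and fell by 1.18; at 72 h against 60 h it rose by 1.12. Tfap2b, an AP-2 factor of neural crest, had 8.14, 7.95 and 7.16 at 60 h, against 6.65, 6.37 and 5.88 at 48 h, and rose by 1.45. Tcf21, a bHLH factor of mesoderm, had 6.64, 6.48 and 5.32 at 60 h, against 4.66, 4.82 and 4.85 at 48 h. It rose by 1.37, with 60 h C the lowest of its group, and its call ended in the fit of 6 arrays. With the mean of their probe sets Tfap2b and Tcf21 changed by 0.88 and 0.60.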
